A study of Mus musculus with 11 samples.

Results

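Neurotransmitter receptors were examined in sympathetic ganglia of 78-week-old male mice, on arrays that read messenger RNA. The receptor probe sets were those with 1 gene whose symbol matched the names of adrenergic, muscarinic, serotonin, dopamine, GABA, glutamate, glycine, neuropeptide Y or purine (P2X and P2Y) receptors. The pattern took 93 of 22626 probe sets that were not array controls, and these stood for 73 of 12393 genes. Of these, 9 probe sets of 4 genes matched by spelling only: Htra1, Htra2 and Htra3 encode serine proteases, and Grina encodes a membrane protein named for a similarity to glutamate receptor subunits. That left 84 probe sets of 69 receptor genes. Receptor genes outside this set were not analysed here. The symbols were not chosen from the values of these arrays, although earlier results of the same arrays were known.

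Mice of genotype apoE-/- (6 arrays), which lack the lipid carrier apolipoprotein E, were set against wild-type mice (5 arrays). All were C57BL mice of the Jackson Laboratory kept on normal chow, and the ganglia were taken from frozen tissue by laser capture. The labels tie no array to an animal: p-values describe the variation among arrays, part of which can be technical, and they are too small where arrays share an animal. The series title asks how a diseased artery and the peripheral nervous system affect each other.

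A sympathetic ganglion relays signals from the spinal cord to vessels, heart, fat and other organs. Acetylcholine opens nicotinic channels on its noradrenergic neurons, and the receptors described here tune that relay. Some are channels that the transmitter opens directly: the 5-HT3 serotonin receptor, the GABA-A and glycine receptors, the AMPA, kainate and NMDA glutamate receptors, and the P2X receptors for ATP. The others signal through G proteins, and several, such as alpha-2 adrenergic and dopamine D2 receptors, are known as brakes on transmitter release. P2Y receptors and some P2X receptors are also known from macrophages and glia.

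Apoe, the deleted gene, checked the labels. Its highest signal in Apoe-deficient arrays was 268.2, against a lowest signal of 11830 in wild-type arrays. The ganglion showed its own markers: all 10 noradrenergic neuron genes looked at, among them Th and Dbh, which encode enzymes of noradrenaline synthesis, passed the filter on low values, and 0 of 10 passed the test. The arrays were divided into 3 levels by hybridisation control signal, which is spiked-in RNA read on every array. The low level held replicates 2, 3 and 4 of the Apoe-deficient group, and the middle level its replicate 5 with replicates 3, 4 and 5 of the wild-type group. The high level held the other 4 arrays. In mean log2 control signal the low level ended at 11.055 and the middle level began at 11.7693. The middle level ended at 12.0418, and the high level ran from 12.4773 to 13.2188. The low level thus stood apart most clearly. The gap between middle and high was narrower than the spread within the high level, so that division is less certain. The summed signal of the noradrenergic markers was 44328 to 47070 on the low arrays, 65778 to 74629 on the other Apoe-deficient arrays and 60027.5 to 79751 on the wild-type arrays. No label names these levels, and results for receptors are given with and without the low arrays where these matter. The low level held no wild-type array, so a fit blocked on level cannot adjust for it. Such a fit takes its difference from the other arrays, as does the fit without the low arrays.

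No detection call was at hand, so a gene counted as measured where a probe set lay above the 40th percentile of all normalised values in at least 5 arrays, a level close to a signal of 110.4. Of 69 receptor genes 23 passed, and 0 of these lay above that level in arrays of 1 group only. In all 11 arrays 11 genes lay above that level: Adra2c (alpha-2C adrenergic receptor), Drd2 (dopamine D2), Gabbr1 (a GABA-B subunit), Gria1 and Gria2 (AMPA subunits), Grik5 (a kainate subunit), Htr1b (serotonin 1B), Htr3a and Htr3b (5-HT3 subunits), P2rx4 (an ATP-gated channel) and P2ry14 (a receptor for UDP-sugars). The other 12 genes that passed were Gabrb2, Gabre, Gabrp, Gria4, Grin2b, Drd4, Htr1a, Npy1r, Npy4r, P2rx7, P2ry4 and P2ry12, each above it in only some arrays.

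A stricter level came from olfactory receptor genes, which belong to the nose: the 95th percentile of their 33 probe sets on each array. It left 12 receptor genes, the 11 above and Gabrp, a GABA-A subunit. The other 11 genes that passed the filter did not pass that level. A signal depends on its probe set, so signals do not rank one receptor against another.

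**Figure D1:**
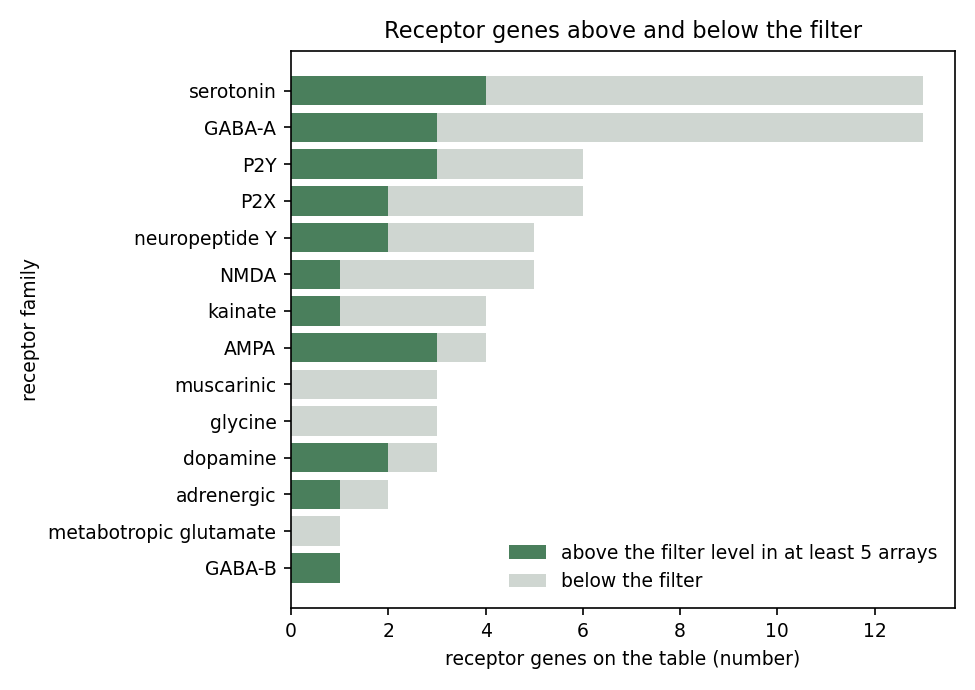
Number of receptor genes on the table (x axis) by receptor family (y axis), with the dark part for genes above the filter level in at least 5 arrays and the pale part for genes below the filter. Serotonin and GABA-A genes were the most numerous, with 4 of 13 and 3 of 13 above it, and 0 muscarinic, glycine or metabotropic glutamate genes were.

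Below the filter lay 46 receptor genes, with mean signals over the 11 arrays between 4.75 and 101. Of these, 38 lay above the filter level in 0 arrays. They included all 3 muscarinic genes on the table: Chrm1, the M1 receptor of acetylcholine, averaged 18.8 ± 4.05 in Apoe-deficient arrays (SD, n = 6) and 21.7 ± 12.3 in wild-type arrays (SD, n = 5). The 3 glycine receptor genes and Grm8 also lay below it. P2rx3, an ATP-gated channel known from sensory neurons, averaged 4.72 ± 2.35 in Apoe-deficient arrays (SD, n = 6) and 10.3 ± 4.49 in wild-type arrays (SD, n = 5). A low signal may reflect the probe set as well as the RNA, so these genes are not shown to be absent. The other 8, Gabrg3, Gria3, Grin2d, Htr1d, Htr6, Npy5r, P2rx1 and P2ry6, lay above the level in 2 to 4 arrays.

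No receptor gene passed the test. Of the 23 tested receptor genes 0 passed an adjusted p of 0.05 (limma, Benjamini-Hochberg over 8433 genes), where 1.93% of all genes tested did. An unadjusted limma p under 0.05 was met by 5, or 21.7%, close to the 20.3% of all genes. The 5 were P2ry14 and P2ry12, with positive differences, and Grik5, P2rx7 and Htr1b, with negative ones. The differences were negative for 16 of 23 genes (69.6%), against 57.0% of all genes, with a median log2 difference of -0.18 against -0.04 over all genes. Each difference given is Apoe-deficient minus wild-type in log2(signal + 16), a scale that makes changes of dim probe sets look smaller. Receptor genes whose groups did not overlap numbered 1, against 2.96% of all genes.

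**Figure D2:**
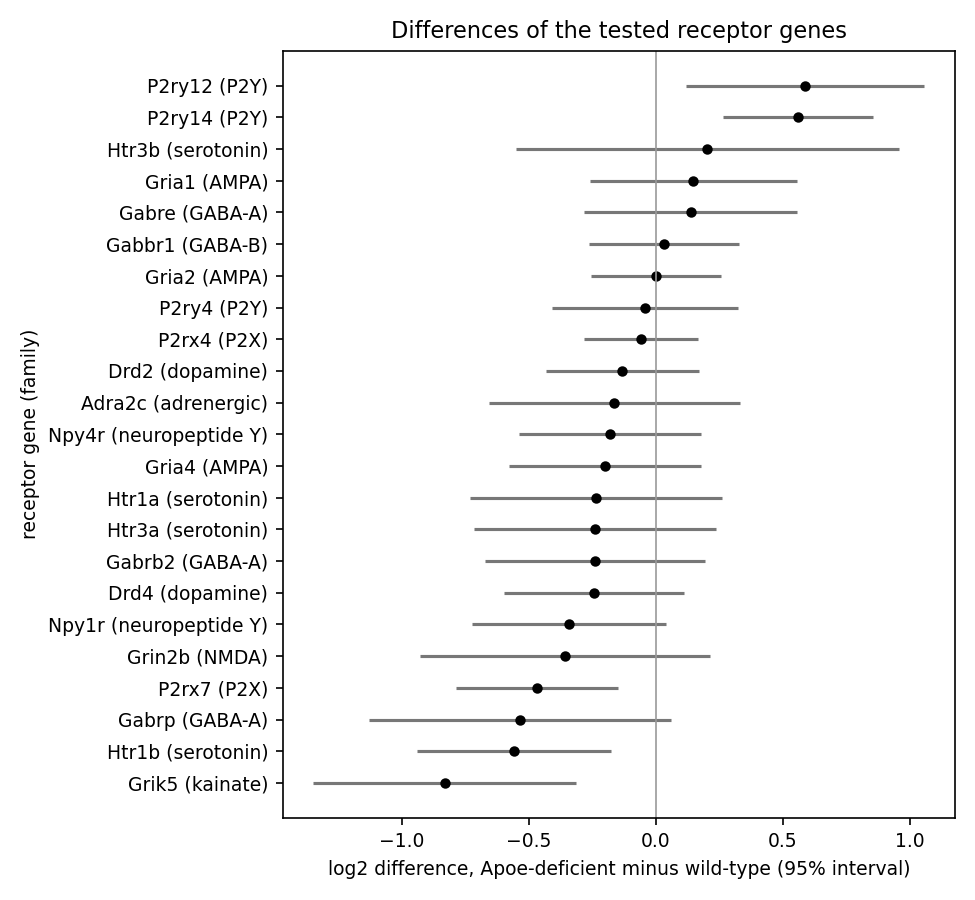
Log2 difference (x axis, Apoe-deficient minus wild-type) of the 23 tested receptor genes (y axis, family in brackets), with points for estimates and lines for 95% intervals from limma. The estimates run from -0.83 for Grik5 to 0.59 for P2ry12, and most intervals cross 0.

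Of the 23 receptor genes, the 2 with the largest positive differences were P2Y receptors, G protein-coupled receptors for nucleotides. P2ry14 had a signal of 191.1 at the lowest, 225.5 at the median and 298.2 at the highest in the 6 Apoe-deficient arrays, against 151.5, 170.1, 161.6, 135.7 and 148.8 in the wild-type arrays. All Apoe-deficient arrays lay above all wild-type arrays, a separation found in that direction for 1.46% of all genes. The difference was 0.56 (SE 0.14), just short of the threshold with a limma adjusted p of 0.0513. It passed under 6 of 28 alternatives, and the adjusted p ran from 0.0199 with array weights to 0.574 on the high control level alone. The 6 were the filter in all 11 arrays (where 1.86% of all genes passed), the mean of probe sets (2.17%), no intensity trend (1.72%), array weights (7.92%) and the fits without Apoe-deficient replicate 1 (3.11%) or 5 (2.75%). Without the low arrays the difference was 0.45 (limma adjusted p = 0.343).

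P2ry12, the ADP receptor known from platelets and microglia, had signals of 126.4 at the lowest, 153.6 at the median and 273.5 at the highest in Apoe-deficient arrays. In wild-type arrays they were 119.1, 102.8, 78.5, 126.2 and 127.0. Of the Apoe-deficient arrays 4 of 6 lay above all wild-type arrays, and the 3 highest were the low control arrays, at 168.8, 209.7 and 273.5. P2ry12 lay near the filter level, above it in all 6 Apoe-deficient arrays and in 3 wild-type arrays. Its Apoe-deficient arrays alone were enough for the filter, and it was not above the olfactory receptor level. The difference, 0.59 (SE 0.22, limma adjusted p = 0.163), was 0.23 in a fit blocked on control level (limma adjusted p = 0.741) and 0.23 without the low arrays (limma adjusted p = 0.753).

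P2ry6, a UDP receptor known from macrophages, lay below the filter, since after normalisation it exceeded the level in 4 arrays, all Apoe-deficient. Its signals there were 21.2 at the lowest, 145 at the median and 172.8 at the highest, against 107.2, 21.6, 32.6, 95.1 and 118.0 in wild-type arrays. Both groups spread widely and overlapped. P2ry4, a receptor for UTP, had a log2 difference of -0.04 with a 95% interval from -0.41 to 0.33.

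Markers of some other cell types also differed between the groups. Here a gene rose or fell where it passed the test. Of 11 tested macrophage genes 9 rose in Apoe-deficient ganglia and 0 fell, where 1.26% of all genes rose and 0.676% fell. Their summed signal, with Cx3cr1 below the filter included, was 11270 to 15937 in Apoe-deficient arrays and 6316 to 8215 in wild-type arrays. Mast cell genes rose in 4 of 6, with summed signals of 1759 to 5196 in Apoe-deficient arrays and 697 to 1829 in wild-type arrays. One of them, the protease gene Tpsb2, averaged 173 ± 53.0 in Apoe-deficient arrays (SD, n = 6) and 35.5 ± 28.5 in wild-type arrays (SD, n = 5), so it passed the filter through its Apoe-deficient arrays and had to differ. Endothelial genes had 0 of 5 past the test. Satellite glia genes had 0 of 7, myelinating Schwann cell genes 0 of 3, and smooth muscle and pericyte genes 0 of 6. Other lists lay on the lower side. Of 2 tested genes of the sensory neuron list 1, Avil, fell (-0.62, limma adjusted p = 0.0219). The other, Isl1, did not pass (-0.05, limma adjusted p = 0.865). The list's members Scn10a and P2rx3 lay below the filter, so its summed signal came mostly from Avil and Isl1. That sum was 5497 to 6285 in Apoe-deficient arrays and 6669 to 8553 in wild-type arrays, and it does not show sensory neurons in the ganglia. Fat genes had 0 past the test, with negative differences in 5 of 5 white fat genes (median -0.66) and 6 of 6 brown fat genes (median -0.68). Their summed signals overlapped, at 3580 to 25720 in Apoe-deficient and 10525 to 32728 in wild-type arrays for white fat, and at 1059 to 3262 in Apoe-deficient and 1990 to 7091 in wild-type arrays for brown fat. The part of any of these cells in the receptor differences was not tested, and in whole ganglia more cells of a type and more RNA per cell cannot be told apart.

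P2ry14 and P2ry12 lie on chromosome 3 with 2 protein-coding genes between them in the RefSeq table. Med12l, which spans the cluster, had a log2 difference of -0.12 (limma adjusted p = 0.686). RefSeq (build GRCm38.p6) gives P2ry14 4 start sites and P2ry12 1. The promoters of both are shown because these neighbours had the 2 largest positive differences. Each window runs from 250 bases before to 50 after the start, on the minus strand, at chr3:59153443-59153742 for the most upstream P2ry14 start and chr3:59262936-59263235 for P2ry12. Capitals mark GAGGAA, the core bound by PU.1, a transcription factor of macrophages, searched on both strands (TTCCTC on the other):
P2ry14: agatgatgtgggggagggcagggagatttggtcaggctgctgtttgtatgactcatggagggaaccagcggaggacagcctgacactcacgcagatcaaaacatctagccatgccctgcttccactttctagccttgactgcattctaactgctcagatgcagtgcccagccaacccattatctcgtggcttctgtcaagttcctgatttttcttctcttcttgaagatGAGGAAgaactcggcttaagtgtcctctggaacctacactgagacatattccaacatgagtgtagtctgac
P2ry12: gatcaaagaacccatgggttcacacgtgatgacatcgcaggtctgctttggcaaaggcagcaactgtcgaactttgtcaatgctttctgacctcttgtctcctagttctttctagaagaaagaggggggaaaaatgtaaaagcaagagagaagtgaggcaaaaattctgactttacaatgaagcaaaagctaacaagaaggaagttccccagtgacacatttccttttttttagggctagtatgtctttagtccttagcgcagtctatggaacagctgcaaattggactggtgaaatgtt
The P2ry14 window shown holds 1 match and the P2ry12 window 0, while 28.3% of 32851 promoter windows of the same length hold at least 1. All 4 P2ry14 windows hold 1 match each, and 2 of them overlap and share theirs. The 28.3% is a share per window, and a gene with several windows has more chances of a match. Which start is used in ganglia was not tested, nor was any part of PU.1 in the differences. A match is a string of letters and no measured site. Of the 73 genes taken by the symbol pattern, 56 had a promoter entry.

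**Figure D3:**
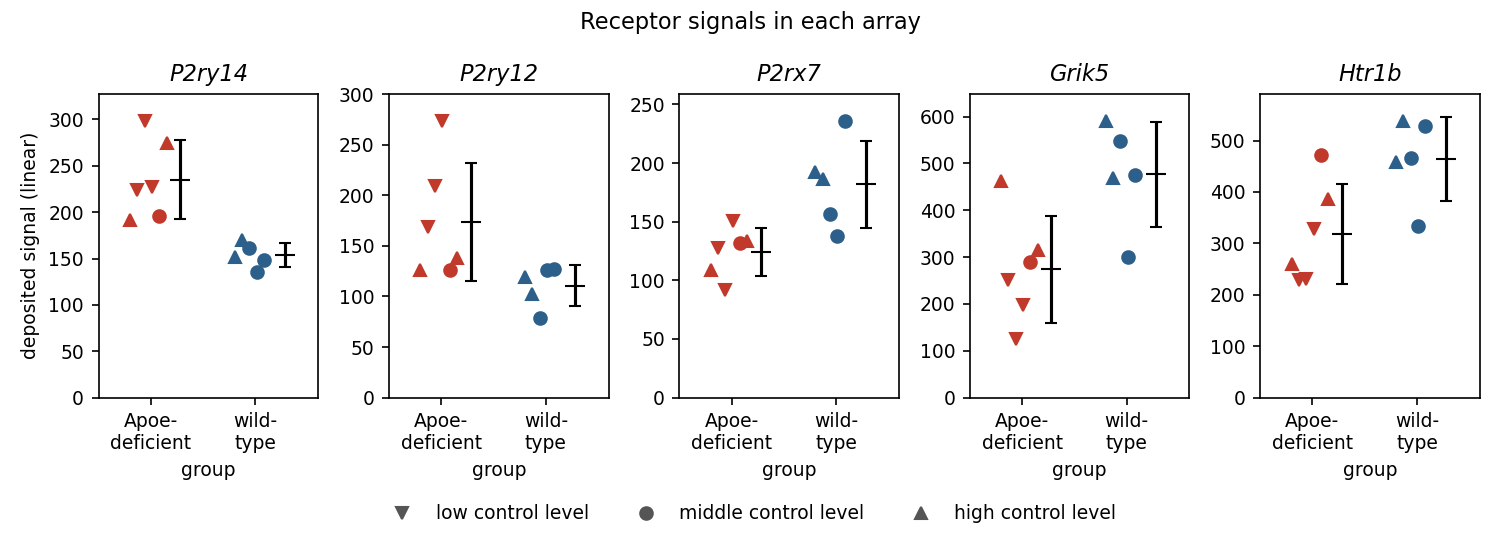
Deposited linear signal (y axes) of P2ry14, P2ry12, P2rx7, Grik5 and Htr1b in each Apoe-deficient (left) and wild-type array (right), with marker shapes for the level of the hybridisation controls and bars for the mean ± SD. P2ry14 separates the groups, while the 3 highest P2ry12 signals and the 3 lowest Grik5 signals are those of the low control level.

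The P2X receptors are channels that ATP opens. P2rx7, known from macrophages and glia, had signals of 92.1 at the lowest, 129 at the median and 150.6 at the highest in Apoe-deficient arrays. In wild-type arrays they were 192.3, 186.0, 156.9, 138.0 and 235.7. In 5 of 6 Apoe-deficient arrays the signal lay below all wild-type arrays. The difference was -0.47 (SE 0.15, limma adjusted p = 0.118), against -0.49 without the low arrays (limma adjusted p = 0.351). Its difference had the sign opposite to that of the 9 macrophage genes that rose, and the part of macrophages or glia in it was not tested. P2rx7 was not above the olfactory receptor level. P2rx4 had a log2 difference of -0.06 with a 95% interval from -0.28 to 0.17, while its second probe set gave 0.22.

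Among glutamate receptor genes the kainate subunit gene Grik5 had the largest difference. Grik5 encodes a subunit that forms kainate receptors together with other members of its family. Its signal was 124.7 at the lowest, 270 at the median and 463.5 at the highest in Apoe-deficient arrays, against 590.5, 469.2, 547.9, 299.3 and 476.2 in wild-type arrays. Of the Apoe-deficient arrays 4 of 6 lay below all wild-type arrays, and wild-type replicate 4 was the lowest of its group. The log2 difference of -0.83 (SE 0.24, limma adjusted p = 0.0922) was the largest of the 23 receptor genes. It passed with array weights (-0.96, limma adjusted p = 0.0199) and without Apoe-deficient replicate 1 (-0.998, limma adjusted p = 0.0245). Blocked on control level it was -0.52 (limma adjusted p = 0.42), and without the low arrays -0.43 (limma adjusted p = 0.544). The low arrays had 251.7, 124.7 and 198.7, and their summed noradrenergic marker signal was low as well, as given above. Both are deposited signals before normalisation, while the log2 differences are taken after it. The part of the low control level in the result was not tested beyond these values. Grik5 lies on chromosome 7, as Apoe does, with 155 protein-coding genes between them in the RefSeq table, and what the shared chromosome contributes was not tested.

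AMPA receptors carry fast glutamate signals. Gria2, the subunit known to limit calcium entry, averaged 841 ± 80.2 in Apoe-deficient arrays (SD, n = 6) and 839 ± 160 in wild-type arrays (SD, n = 5). Its log2 difference was 0.00 with a 95% interval from -0.25 to 0.26, so a larger change in either direction lies outside the interval for this probe set. A second Gria2 probe set gave -0.28. Gria1 averaged 718 ± 170 in Apoe-deficient arrays (SD, n = 6) and 626 ± 129 in wild-type arrays (SD, n = 5), a log2 difference of 0.15 (95% interval -0.26 to 0.55). Gria4 (-0.20) and the NMDA subunit gene Grin2b (-0.36) did not pass and lay near the filter level.

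Of 4 tested serotonin receptor genes 0 passed. Htr1b, a release-braking receptor, had signals of 228.7 at the lowest, 294.1 at the median and 472.5 at the highest in Apoe-deficient arrays. In wild-type arrays they were 459.0, 537.7, 465.4, 332.9 and 528.4. In 4 of 6 Apoe-deficient arrays the signal lay below all wild-type arrays. This made a difference of -0.56 (SE 0.18, limma adjusted p = 0.119). It passed without Apoe-deficient replicate 5 (-0.67, limma adjusted p = 0.0423) and with array weights (-0.66, limma adjusted p = 0.0346). Blocked on control level it was -0.33 (limma adjusted p = 0.585), and without the low arrays -0.34 (limma adjusted p = 0.592). The 2 other levels went opposite ways. The mean difference was -0.64 at the high level (2 Apoe-deficient and 2 wild-type arrays) and 0.09 at the middle level (1 and 3).

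Htr3a and Htr3b encode the subunits of the 5-HT3 receptor, a serotonin-gated channel known from autonomic and sensory neurons. Htr3a averaged 5982 ± 2102 in Apoe-deficient arrays (SD, n = 6) and 7241 ± 2407 in wild-type arrays (SD, n = 5), a log2 difference of -0.24 (95% interval -0.71 to 0.24). Htr3b averaged 1807 ± 790 in Apoe-deficient arrays (SD, n = 6) and 1660 ± 866 in wild-type arrays (SD, n = 5), a log2 difference of 0.20 (95% interval -0.55 to 0.96), which was 1.07 on the high control level alone. Both genes spread widely within each group. Apoe-deficient replicate 6 was highest for both genes, at 10062 and 3324, and among wild-type arrays replicate 1 was lowest for both, at 4165 and 575, and replicate 3 highest, at 9705 and 2786.

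The 2 subunits thus varied together across arrays. Over 11 arrays their log2 values had Pearson's r of 0.88 (permutation p = 0.00014, adjusted 0.0354 over all 253 pairs of tested receptor genes) and Spearman's rho of 0.88 (permutation p = 0.00093, adjusted 0.191). Without the 2 arrays farthest from the Htr3a median r was 0.79. Each control level holds too few arrays for its own value. By r, 1 of 253 pairs passed the adjusted threshold, and by rho that pair did not. An unadjusted permutation p of r under 0.05 was met by 31 of 253 pairs. The share among pairs of all tested genes was not computed, so the count shows nothing particular to receptors. Arrays of both groups were pooled, and the part of the group differences in these correlations was not tested. Among the 31 pairs were Htr3a with Adra2c (r = 0.77, adjusted permutation p = 0.2) and Htr3a with Gria1 (r = -0.77, adjusted permutation p = 0.209). Neither passed the adjusted threshold. Without the 2 arrays farthest from the Adra2c or the Gria1 median, r was 0.69 and -0.59. By signal, Apoe-deficient replicate 6 was the highest array for Htr3a and Adra2c and the lowest for Gria1. Htr1a, the serotonin 1A receptor, did not pass (-0.24) and lay near the filter level.

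**Figure D4:**
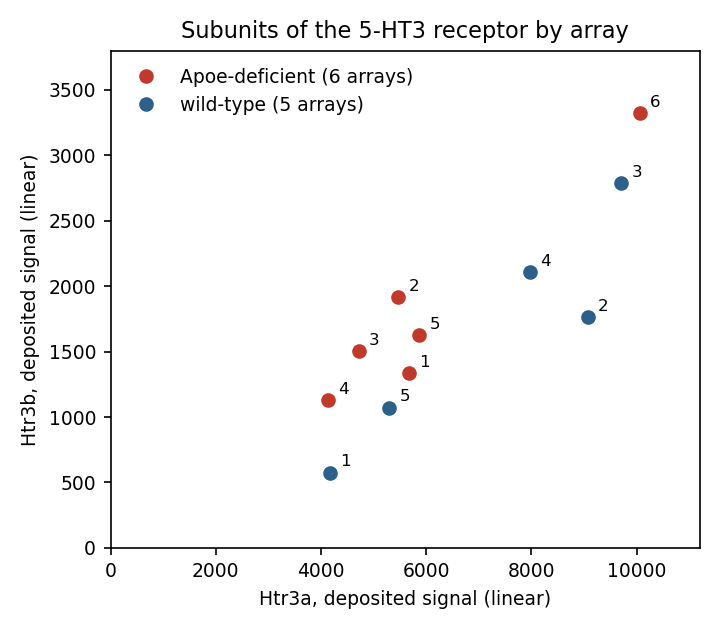
Deposited linear signal of Htr3a (x axis) against Htr3b (y axis), with 1 point per array and its replicate number, in Apoe-deficient and wild-type ganglia. The signals of the 2 subunits are mostly high or low together. In the Apoe-deficient group replicate 6 lies far above the rest, and the order of the other arrays differs between the subunits.

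Adra2c and Drd2, of the receptors known as brakes on transmitter release, showed no difference past the threshold. Adra2c averaged 305 ± 142 in Apoe-deficient arrays (SD, n = 6) and 331 ± 81.7 in wild-type arrays (SD, n = 5). Its log2 difference of -0.16 was positive without the low arrays (0.14), so its direction depends on them. Drd2 averaged 840 ± 114 in Apoe-deficient arrays (SD, n = 6) and 915 ± 165 in wild-type arrays (SD, n = 5), a log2 difference of -0.13 (95% interval -0.43 to 0.17). Npy1r, a receptor of neuropeptide Y, which sympathetic neurons release with noradrenaline, differed by -0.34 (SE 0.18, limma adjusted p = 0.299), while a second probe set below the filter gave 0.42. Npy4r differed by -0.18 and Drd4 by -0.24.

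GABA receptors are the inhibitory receptors of the brain and occur in ganglia too. Gabbr1, a GABA-B subunit, averaged 2766 ± 463 in Apoe-deficient arrays (SD, n = 6) and 2705 ± 502 in wild-type arrays (SD, n = 5), a log2 difference of 0.03 (95% interval -0.26 to 0.33). Its 3 probe sets past the filter gave 0.03, -0.04 and 0.44. The GABA-A subunit gene Gabrp had 45.6 at the lowest, 138 at the median and 182.0 at the highest in Apoe-deficient arrays, against 213.2, 161.8, 189.8, 149.0 and 208.2 in wild-type arrays. Its log2 difference of -0.53 (SE 0.28) did not pass, and a second probe set gave -0.35. Without Apoe-deficient replicate 6, the array at 45.6, it was -0.28, and with a fat marker score as covariate -0.91. Gabre (0.14) and Gabrb2 (-0.24) did not pass either.

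The 95% interval lay within 0.5 log2 units of 0 for 5 of the 23 receptor genes, namely Gria2, P2rx4, Gabbr1, Drd2 and P2ry4. That is 21.7% of them, against 50.6% of all genes tested. For the others a difference of that size was not excluded by these arrays. The 46 genes below the filter were fitted once without it, and 0 passed the adjusted threshold. An unadjusted limma p under 0.05 was met by 4 of them, Grik1, Htr2b, Gabra2 and Gabra6, or 8.7%, against 17.1% of all 12393 genes fitted that way, and their signals lay below the filter level in every array. Of the genes matched by spelling, Htra3 differed by -0.44 (limma adjusted p = 0.183) with another probe set at 0.31, Grina by -0.25, Htra2 by 0.09 and Htra1 by 0.07, and 0 of 4 passed.

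Genes that carry receptor signals onward were looked at next, from lists of G proteins and effectors, desensitisation, scaffolds and auxiliary subunits, and handling of transmitters other than noradrenaline. These lists held 101 genes with a probe set, and 74 of the genes passed the filter. Of these 1 rose and 1 fell, where 1.26% of all genes rose and 0.676% fell. The median log2 difference was -0.09 for 31 G protein and effector genes, 0.07 for 14 desensitisation genes, -0.12 for 18 scaffold and auxiliary subunit genes and -0.13 for 11 transmitter handling genes, against -0.04 over all genes.

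Rgs2, which shortens signalling through Gq proteins, was the gene that rose, 1 of 14 desensitisation genes. Its signal was 319.0 at the lowest, 862 at the median and 1608 at the highest in Apoe-deficient arrays, against 255.4, 287.9, 251.9, 325.3 and 254.5 in wild-type arrays. The low control arrays were the highest, at 905.2, 1608 and 1082, and Apoe-deficient replicate 6 lay within the wild-type range. Its difference was 1.41 (SE 0.31, limma adjusted p = 0.0284). A second probe set gave 0.78. It was 0.94 when blocked on control level (limma adjusted p = 0.176), 0.82 without the low arrays (limma adjusted p = 0.28), 1.05 with a fat marker score as covariate (limma adjusted p = 0.241) and 0.49 on the high control level alone (limma adjusted p = 0.611). The call was lost when replicate 2, 3 or 4 of the Apoe-deficient arrays was left out (limma adjusted p 0.056 to 0.067), and also without replicate 1, 2, 3 or 5 of the wild-type arrays (0.0651 to 0.0814). The difference stayed between 1.20 and 1.43. Rgs10, of the same gene family, differed by 0.61 (limma adjusted p = 0.126).

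Gnb1, a beta subunit of G proteins, was the gene that fell, 1 of 31 G protein and effector genes. It averaged 3752 ± 390 in Apoe-deficient arrays (SD, n = 6) and 5239 ± 885 in wild-type arrays (SD, n = 5), a log2 difference of -0.46 (SE 0.11, limma adjusted p = 0.0391). Its other probe set past the filter gave 0.37, the opposite direction, and the mean of both -0.04. Its call was lost without each of the same arrays as for Rgs2 (limma adjusted p 0.0651 to 0.113), without the quantile step, with median centring, without the filter and without the intensity trend (0.0561 to 0.0688). Blocked on control level the difference was -0.40 (limma adjusted p = 0.164), and without the low arrays -0.36 (limma adjusted p = 0.34). Prkar1b, a regulatory subunit of protein kinase A, differed by -0.25 (limma adjusted p = 0.126).

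Of 18 scaffold and auxiliary subunit genes 0 passed, among them Grip1, which binds AMPA subunits (-0.63, limma adjusted p = 0.11), and Nlgn2, a cell adhesion protein of inhibitory synapses (-0.41, limma adjusted p = 0.197). Of 11 genes of transmitter handling 0 passed. Slc6a4, the serotonin transporter, had signals of 56.3 at the lowest, 81.7 at the median and 146.8 at the highest in Apoe-deficient arrays, against 738.4, 253.8, 57.4, 147.6 and 584.0 in wild-type arrays. The wild-type arrays spread widely and overlapped the Apoe-deficient arrays. The difference was -1.37 (SE 0.49, limma adjusted p = 0.15). It passed without wild-type replicate 3 (-1.86, limma adjusted p = 0.0301). Entpd1, an enzyme that breaks down extracellular ATP and is known from immune and endothelial cells, differed by 0.38 (limma adjusted p = 0.183).

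**Figure D5:**
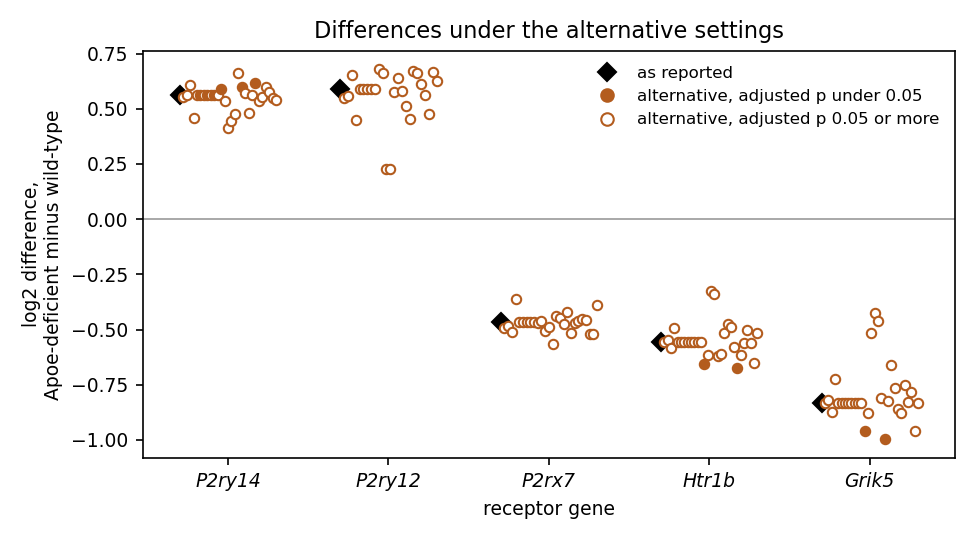
Log2 difference (y axis, Apoe-deficient minus wild-type) of 5 receptor genes (x axis) as reported (diamonds) and under each alternative setting (circles, filled where the limma adjusted p was under 0.05). The sign was kept for all 5 genes, while P2ry12, Htr1b and Grik5 were nearer to 0 when blocked on control level and without the low control arrays. Both of these settings take the difference from arrays of the middle and high levels.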

How the data were processed

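RNA of 11 ganglion samples was read on arrays of 22690 probe sets. The authors deposited 1 linear intensity value, a signal, for each probe set and array. GCOS 1.4 is named per the submitters' processing notes, with no signal algorithm given there. All deposited arrays had nearly the same trimmed mean, 500.2. The members and gene lists were chosen with earlier results of these data known.

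Without the 64 control probe sets, log2(signal + 16) was quantile normalised. Probe sets had to exceed the overall 40th percentile in 5 or more arrays. The single-gene probe set of highest mean stood for a gene. The test was limma 3.58.1, run under R 4.3.3 (intensity trend, two-sided, Benjamini-Hochberg over 8433 genes, threshold 0.05), a script also tested on simulated data. Alternatives changed the normalisation, pseudocount, filter, probe set rule, variance model, blocks and arrays used. Receptor pairs were compared with 100000 permutations, two-sided. The number of arrays limits the precision.

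Named genes were Apoe, receptor genes with unadjusted p under 0.05 or groups without overlap, the 5 largest differences each way, the smallest p of each family, and in each pathway list the called genes and the 2 of smallest p. Other receptor genes that passed the filter are named with their differences. Those below it chosen as examples (Chrm1, P2rx3, P2ry6 and the 4 of smallest p) were picked after their values were seen. So were Med12l, Tpsb2, Avil, Isl1 and the promoters of P2ry14 and P2ry12. The motif searched in them was in no list fixed beforehand. Gene order came from the RefSeq table of GRCm38.p6, which held all 73 genes.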

Additional observations from a re-analysis of the deposited data

Results flagged for a closer look

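Single arrays stood far from the rest of their group for 3 of the named genes, by Dixon's gap test. About 1 in 20 groups is picked out by chance, and 56 were examined. Apoe-deficient replicate 6 had the lowest Gria1 signal of its group, 403.4, where the other 5 arrays lay between 705 and 906.9. The same array had the lowest Gabrp signal, 45.6, where the others lay between 100.1 and 182. Apoe-deficient replicate 3 had an Apoe signal of 7.2, where the others lay between 119.8 and 268.2.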

How the results depend on the processing

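With limma 0 receptor genes passed as reported (5 at an unadjusted p under 0.05), and the count of receptor genes past the threshold was 1 with the filter applied to all 11 arrays, 1 with the mean of probe sets and 1 without the intensity trend (each time P2ry14), 3 with array weights (P2ry14, Grik5 and Htr1b; Prkar1b also passed there, limma adjusted p = 0.0357) and 0 to 2 over the fits without 1 array. The number of genes of the symbol pattern that passed the filter, 27 as reported, was 73 with no filter, 13 at the 60th percentile, 15 with all 11 arrays required and 16 with the olfactory receptor level. Over all genes, 163 calls became 668 with array weights, 45 with the control level as a block, 24 without the low control level, 4 on the high level alone, 38 with the fat marker score as a covariate and 75 to 267 without 1 array, 75 without Apoe-deficient replicate 3 and 267 without wild-type replicate 4. Differences that were not called turned sign. Adra2c became 0.12 with the control level as a block, 0.14 without the low level and 0.13 on the high level alone. Gabbr1 became -0.30 on the high level alone, -0.21 with the fat score, -0.040 without Apoe-deficient replicate 5, and -0.025 and -0.035 without wild-type replicates 4 and 5. Gria1 became -0.028 with the block, -0.41 on the high level alone and -0.16 with the fat score. Htr3b became -0.0012 without Apoe-deficient replicate 6, with or without the replicate block, and -0.13 without wild-type replicate 1. Without 1 array each, Gabbr1 reached 0.11, Gabre 0.27 and Htr3b 0.44 at the highest. Gabre became -0.0038 without wild-type replicate 4, Htra1 -0.052 and Htra2 -0.051 with the mean of probe sets, and Htra1 -0.024 without Apoe-deficient replicate 1. Among further uncalled differences that moved by over 1.5 times, Gria1 came to 0.07 and 0.31 without replicates 4 and 6 of the Apoe-deficient group, Adra2c to -0.36 without that group's replicate 6 and -0.035 without wild-type replicate 2, Gabrp to -0.28 without Apoe-deficient replicate 6, Drd4 to -0.13 without Apoe-deficient replicate 1, Grin2b to -0.17 without Apoe-deficient replicate 3 and to -0.23 with a pseudocount of 64, and Gria4 to -0.13 without wild-type replicate 2. Htr3b ranged from -0.13 to 1.07 over all settings. The causes were not tested. With the replicate block 186 genes and 0 receptor genes passed, Gnb1 lost its call (-0.46, limma adjusted p = 0.0541) and Rgs10 passed (0.73, limma adjusted p = 0.0425); the labels do not say that a number pairs arrays, and same-numbered arrays did not deviate together (correlations -0.18 to 0.15 over 5 pairs).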
